A study of Mus musculus with 16 samples.

Results

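The genes described here mark the mural cells of blood vessels, the pericytes and smooth muscle cells that wrap the endothelium, and they were measured in RNA of brain endothelial cells (bECs) sorted away from those cells. There were 7 pericyte genes (Pdgfrb, Rgs5, Kcnj8, Notch3, Cspg4, Des and Vtn) and 3 smooth muscle genes (Acta2, Tagln and Myh11). They were taken by symbol from a table of read counts, and all 10 were found among its 37003 genes, with counts in each of the 16 libraries.

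The study asked how the loss of YAP and TAZ from endothelium alters bECs in health and after stroke. All mice were adult, of either sex, carried Yap fl/fl and Taz fl/fl alleles (the gene symbol of Taz is Wwtr1) and received tamoxifen before surgery. YT-iKO mice also carried Pdgfb-iCreER-eGFP, a tamoxifen-activated Cre recombinase driven by the promoter of an endothelial growth factor gene, and CTRL mice were littermates without it. Surgery was either sham or MCAo (occlusion of the middle cerebral artery for 30 min, then reperfusion), and cells were taken 72 h later, after MCAo from the territory of that artery. Cells were enriched on CD31 beads and then sorted as living DAPI- CD45- CD31+ cells. Each of the 4 groups, sham and MCAo of either genotype, had 4 libraries, each from a separate pool of several mice, so the spread between libraries is a spread between pools.

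Pericytes sit in the basement membrane of capillaries and are recruited by endothelial PDGF-B acting on the receptor encoded by Pdgfrb. Smooth muscle cells form the contractile coat of arterioles and arteries and are recognised by actin, myosin and their partners. Pericytes adhere so closely to endothelium that they can pass through dissociation and sorting attached to it, and in bulk RNA fewer cells of a type and less RNA per cell cannot be told apart.

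Libraries held 11418262 to 23074547 counts. Pecam1, which encodes CD31, was at 622 to 1932 CPM (counts relative to the library total, scaled by TMM factors) and Ptprc, which encodes CD45, at 0.374 to 10.1 CPM. Yap1 (log2 fold change in YT-iKO −1.18 after sham and −1.17 after MCAo) and Wwtr1 (−1.88 in both) were lower in YT-iKO, with adjusted p of 0.0371, 0.0478, 0.00381 and 0.00356 by edgeR's quasi-likelihood test. An even background was read from 1299 olfactory, vomeronasal and taste receptor genes, which these cells should not use. Its density was 0.0219 to 0.549 CPM per kb of exon, and it was over 0.4 in 3 libraries, YT-iKO sham replicate 3 and YT-iKO MCAo replicates 2 and 3.

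Per kilobase of exon, so that genes can be compared, Rgs5 had the highest level of the 10, with a mean over 16 libraries of 98.5 CPM per kb. Vtn followed at 62.4, Pdgfrb at 16.1, Notch3 at 9.0 and Kcnj8 at 5.98 CPM per kb, and each of these steps down held in 16 of 16 libraries. Below them the order was not firm: Myh11 (4.43 CPM per kb), Cspg4 (3.45), Acta2 (2.72) and Des (2.52) exchanged places between libraries, each step from Kcnj8 down to Des holding in 11 or 12 of 16. Tagln was lowest in every library, with a mean of 0.420 CPM per kb. Rgs5, Vtn, Pdgfrb, Notch3 and Kcnj8 thus stood above all 3 smooth muscle genes on this per-kb scale in their means, while Cspg4 and Des did not stand apart from Acta2. The summed CPM of the 7 pericyte genes came to 3.15% ± 0.398 of that of 16 endothelial marker genes in CTRL sham (SD, n = 4). The 3 smooth muscle genes came to 0.135% ± 0.0222 in that group.

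Pdgfrb, the receptor for PDGF-B on pericytes (chr18:61045150-61085061, plus strand, GRCm38), was at 63.5, 60.6, 70.6 and 94.1 CPM in CTRL sham replicates 1 to 4 and at 171, 131, 60.5 and 93.9 CPM in CTRL MCAo. In YT-iKO it was at 81.7, 61.8, 50.6 and 35.1 CPM after sham and at 155, 60.5, 57.4 and 161 CPM after MCAo. The MCAo groups divided: replicates 1 and 2 of CTRL and replicates 1 and 4 of YT-iKO stood above every sham library, whereas the others lay within the sham range. The MCAo and sham groups overlapped in both genotypes.

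Kcnj8, a subunit of the ATP-sensitive potassium channel of pericytes (chr6:142564837-142571614, minus strand), was at 11.6, 10.5, 14 and 14.3 CPM in CTRL sham and at 33.4, 23.3, 11.1 and 16.6 CPM in CTRL MCAo. Its YT-iKO values were 12.1, 9.95, 11.3 and 6.32 CPM after sham and 23.4, 10.6, 9.13 and 25.9 CPM after MCAo. The same 4 MCAo libraries were the highest, and the groups again overlapped. Its ratio to Pdgfrb was nearly fixed, with a coefficient of variation of 11.4% over 16 libraries in which Pdgfrb itself spanned 4.88-fold.

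Notch3, the Notch receptor of mural cells (chr17:32120820-32166852, minus strand), was at 59.3, 49.9, 55.7 and 67.1 CPM in CTRL sham and 120, 94.4, 47.5 and 67.0 CPM in CTRL MCAo. In YT-iKO its levels were 83.3, 67.5, 49.3 and 38.9 CPM after sham and 136, 54.1, 54.3 and 120 CPM after MCAo. Its 4 highest libraries were those in which Pdgfrb was highest. Opposite-strand exons of an antisense gene, Gm17276, share 6.03% of its exon bases, and since SMART-Seq libraries do not keep strand, reads of both genes cannot be told apart there.

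Cspg4, the surface proteoglycan NG2 (chr9:56865033-56899870, plus strand), ranged from 20.9 CPM in YT-iKO sham replicate 4 to 74.2 CPM in CTRL MCAo replicate 1. Its group means were 37.0 ± 7.40 and 48.6 ± 20.9 CPM in CTRL sham and MCAo and 32.1 ± 8.98 and 47.0 ± 17.9 CPM in YT-iKO sham and MCAo (SD, n = 4 each). Oligodendrocyte precursors also express this gene. The 4 libraries highest for Pdgfrb were its 4 highest as well.

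Vtn, which encodes the matrix protein vitronectin (chr11:78499091-78502324, plus strand), was at 128, 91.2, 132 and 154 CPM in CTRL sham and at 266, 175, 92.2 and 124 CPM in CTRL MCAo. Its YT-iKO levels were 135, 83.9, 78.3 and 47.8 CPM after sham and 180, 74.3, 82.0 and 185 CPM after MCAo. It had the widest span of the pericyte genes, 5.57-fold between its lowest library, YT-iKO sham replicate 4, and its highest, CTRL MCAo replicate 1.

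Des, the intermediate filament protein desmin (chr1:75360329-75368579, plus strand), was the lowest pericyte gene per kilobase. It was at 6.38, 8.09, 7.46 and 6.04 CPM in CTRL sham and 16.1, 10.4, 6.99 and 10.8 CPM in CTRL MCAo, and 3 of the 4 CTRL MCAo libraries stood above all CTRL sham libraries. YT-iKO mice gave 7.13, 4.72, 7.97 and 5.73 CPM after sham and 19.2, 9.40, 5.70 and 19.3 CPM after MCAo, where again 3 of 4 MCAo libraries stood above the sham libraries. Antisense Gm15179 shares 5.86% of its exon bases, and the even background could account for 0.570% to 22.7% of its counts.

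Rgs5, a regulator of G protein signalling and a standard pericyte marker (chr1:169655501-169695813, plus strand), was at 537, 464, 543 and 515 CPM in CTRL sham and 731, 500, 274 and 385 CPM in CTRL MCAo. YT-iKO libraries had 497, 376, 338 and 375 CPM after sham and 568, 241, 321 and 496 CPM after MCAo. In each genotype 2 of 4 MCAo libraries lay below every sham library, replicate 1 lay above every one, and the last lay among them, so the groups overlapped.

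**Figure D1:**
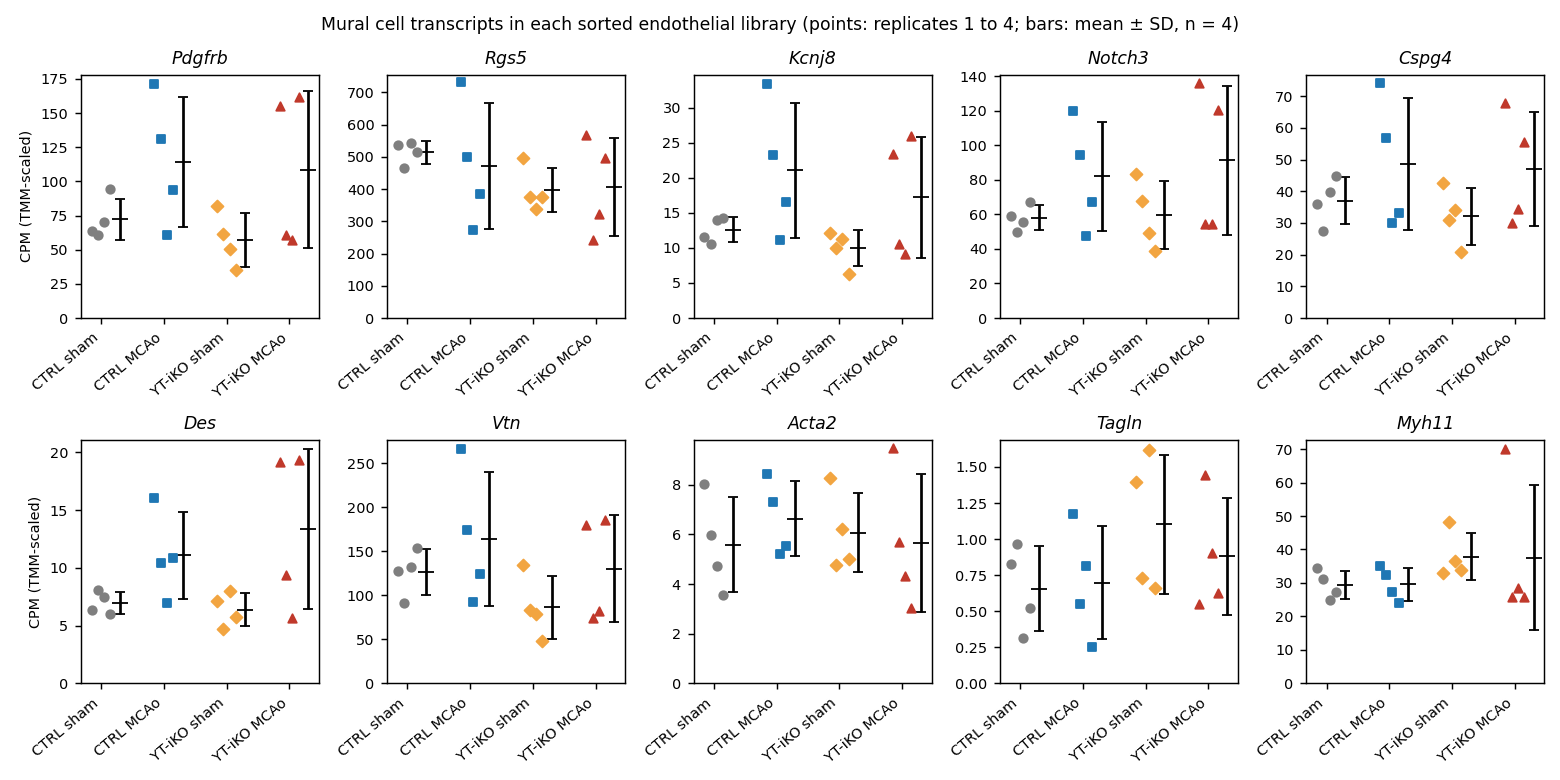
Level of the 10 genes in each library, in CPM scaled by TMM factors, on axes that start at 0. Points are replicates 1 to 4 from left to right and bars are the mean ± SD (n = 4). Pdgfrb reaches 171 and 161 CPM in single MCAo libraries of the 2 genotypes but the MCAo and sham groups overlap, and Tagln stays at or below 1.62 CPM.

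Of the smooth muscle genes, Acta2 (smooth muscle actin, chr19:34241090-34255590, minus strand) was at 8.04, 5.98, 4.74 and 3.57 CPM in CTRL sham and 8.42, 7.30, 5.22 and 5.54 CPM in CTRL MCAo. YT-iKO had 8.29, 4.78, 6.22 and 5.01 CPM after sham and 9.48, 5.70, 4.34 and 3.05 CPM after MCAo. The 4 groups overlapped throughout, and the lowest value came from YT-iKO MCAo replicate 4, the library with the highest Des.

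Tagln, the actin-binding protein transgelin (chr9:45929619-45936058, minus strand), had only 4 to 29 counts a library, or 0.252 to 1.62 CPM. The even background would give 9.36% to 141% of those counts (median 55.0%), and would exceed all of them in CTRL sham replicate 3 and CTRL MCAo replicate 4. Opposite-strand exons of Gm48529 cover 62.4% of its exon bases and those of Pcsk7 cover 5.43%.

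Myh11, the smooth muscle myosin heavy chain (chr16:14194535-14291372, minus strand), was at 34.5, 31.2, 24.8 and 27.3 CPM in CTRL sham and 34.9, 32.4, 27.2 and 24 CPM in CTRL MCAo. The YT-iKO libraries had 33.0, 48.2, 36.5 and 33.9 CPM after sham and 70.1, 25.9, 28.4 and 25.7 CPM after MCAo. YT-iKO MCAo replicate 1 stood alone, and its group's mean of 37.5 ± 21.7 CPM rests on it. Per kilobase, Myh11 exceeded Acta2 in 16 of 16 libraries, by 1.15-fold to 2.91-fold.

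Of the 7 genes with an entry among the RefSeq promoters of GRCm38.p6, 2 hold GGAATG, the letters bound by TEAD factors through which YAP and TAZ act, in the 250 bases before their RefSeq start, and both are shown because those letters would be of interest in a YAP and TAZ knockout. Among 32851 promoters of that length searched on both strands, 12.6% hold it. The capitals mark the match, which starts 146 bases before the start of Acta2 (chr19:34255374-34255623, minus strand) and 234 bases before that of Vtn (chr11:78498870-78499119, plus strand). The RefSeq start of Acta2 lies 217 bases inside the gene span given above, so its match and 217 of the 250 bases are within that span. The RefSeq start of Vtn lies 29 bases inside its span, and its match is outside.
Acta2: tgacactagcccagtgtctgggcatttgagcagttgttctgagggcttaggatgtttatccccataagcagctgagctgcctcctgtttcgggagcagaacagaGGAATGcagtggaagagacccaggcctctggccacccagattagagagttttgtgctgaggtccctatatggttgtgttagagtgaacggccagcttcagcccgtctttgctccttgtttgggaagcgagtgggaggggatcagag
Vtn: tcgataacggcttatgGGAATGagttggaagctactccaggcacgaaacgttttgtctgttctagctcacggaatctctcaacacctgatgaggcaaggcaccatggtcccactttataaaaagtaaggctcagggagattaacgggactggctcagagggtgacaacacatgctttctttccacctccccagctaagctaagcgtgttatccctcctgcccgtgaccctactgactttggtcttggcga
TGGGAA, the letters of the Notch effector RBPJ, was also found in both of these promoters and in 21.6% of all promoters, and in Vtn it overlaps GGAATG. These are matches of letters only.

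The first question was whether these transcripts differed between genotypes. By edgeR at an adjusted p under 0.1, 0 of 10 genes differed between YT-iKO and CTRL after sham, beside 0.0965% of all 31085 genes tested, and 0 of 10 after MCAo, beside 0.0708%. At an unadjusted p under 0.05 the counts were also 0 and 0, beside 2.16% and 1.49% of all genes, and DESeq2 called 0 of the 9 genes it tested in both, beside 0.420% and 0.461%. No gene had groups that did not overlap, beside 3.85% of all genes after sham and 0.981% after MCAo. After sham the log2 fold change in YT-iKO was −0.33 (SE 0.35) for Pdgfrb, −0.38 (SE 0.29) for Rgs5 and −0.55 (SE 0.35) for Vtn, each with an adjusted p of 0.990. It was 0.12 (SE 0.32) for Acta2 and 0.36 (SE 0.27) for Myh11. Of the 7 pericyte genes 6 were below 0 and Notch3 was at 0.04 (SE 0.32). The 16 endothelial markers had a median of −0.29 with 0 of 16 above 0, beside 0.11 over all genes tested. Scaled to those markers, which moved the median of all genes by 0.42, the log2 fold change of Pdgfrb was 0.02. Over 27 alternative fits Rgs5 (−0.48 to −0.009) and Vtn (−0.83 to −0.20) stayed below 0. Each other pericyte gene of the set had the other sign in at least 1 of those fits. After MCAo the values were −0.07 (SE 0.35) for Pdgfrb, −0.22 (SE 0.29) for Rgs5, −0.33 (SE 0.35) for Vtn and 0.28 (SE 0.32) for Des.

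The next comparison was of MCAo with sham within each genotype. In CTRL, log2 fold changes were 0.66 (SE 0.35) for Pdgfrb, 0.74 (SE 0.33) for Kcnj8, 0.50 (SE 0.32) for Notch3, 0.39 (SE 0.30) for Cspg4, 0.66 (SE 0.32) for Des and 0.38 (SE 0.35) for Vtn. In YT-iKO the corresponding values were 0.92, 0.80, 0.61, 0.55, 1.07 and 0.60, with SEs of 0.30 to 0.35. Rgs5 was at −0.12 (SE 0.29) in CTRL and 0.04 (SE 0.29) in YT-iKO. Acta2 (0.24 and −0.10), Tagln (0.07 and −0.33) and Myh11 (0.01 and −0.01) had no common sign across genotypes.

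None of these passed the test. By edgeR at an adjusted p under 0.1, 0 of 10 were called in CTRL, beside 0.216% of all genes, and 0 of 10 in YT-iKO, beside 0.318%. DESeq2 called 0 of 9 in both, beside 1.11% and 1.25%, and 0 of 10 had groups without overlap, beside 4.14% and 1.28%. At an unadjusted p under 0.05, edgeR had 1 gene in CTRL, Kcnj8 (adjusted p = 1.00), beside 3.50% of all genes, and 3 in YT-iKO, Pdgfrb and Kcnj8 (adjusted p = 1.00 for both) and Des (adjusted p = 0.427), beside 3.01%. The effect of MCAo was not found to differ between genotypes: by edgeR 0 of 10 interactions passed at an adjusted p under 0.1, beside 0% of all genes, 0 at an unadjusted p under 0.05, beside 0.373%, and DESeq2 also had 0 of 10, beside 0%.

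The calls changed with the libraries used and with the fit. With the receptor density as a covariate, edgeR called Pdgfrb and Kcnj8 higher after MCAo in CTRL (2 of 10, beside 2.47% of all genes) and Des alone in YT-iKO (1 of 10, beside 1.75%). Without the 3 libraries of the highest receptor density, a choice made after seeing the data, edgeR called 4 of 10 genes higher after MCAo in YT-iKO, namely Pdgfrb (1.37, adjusted p = 0.0109), Kcnj8 (1.32, adjusted p = 0.00912), Notch3 (0.98, adjusted p = 0.0442) and Des (1.65, adjusted p = 3.17e-04), and 4.34% of all genes were called there, beside 0.318% with all libraries. In CTRL, which lost none of its own libraries, it then called Des alone (0.71, adjusted p = 0.0794), beside 1.86% of all genes. YT-iKO MCAo was left with replicates 1 and 4, the 2 libraries of that group highest for Pdgfrb. They were also those of that group with the lowest receptor density, so the 2 traits cannot be told apart here. The cause of the larger fold change of Pdgfrb was not tested.

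**Figure D2:**
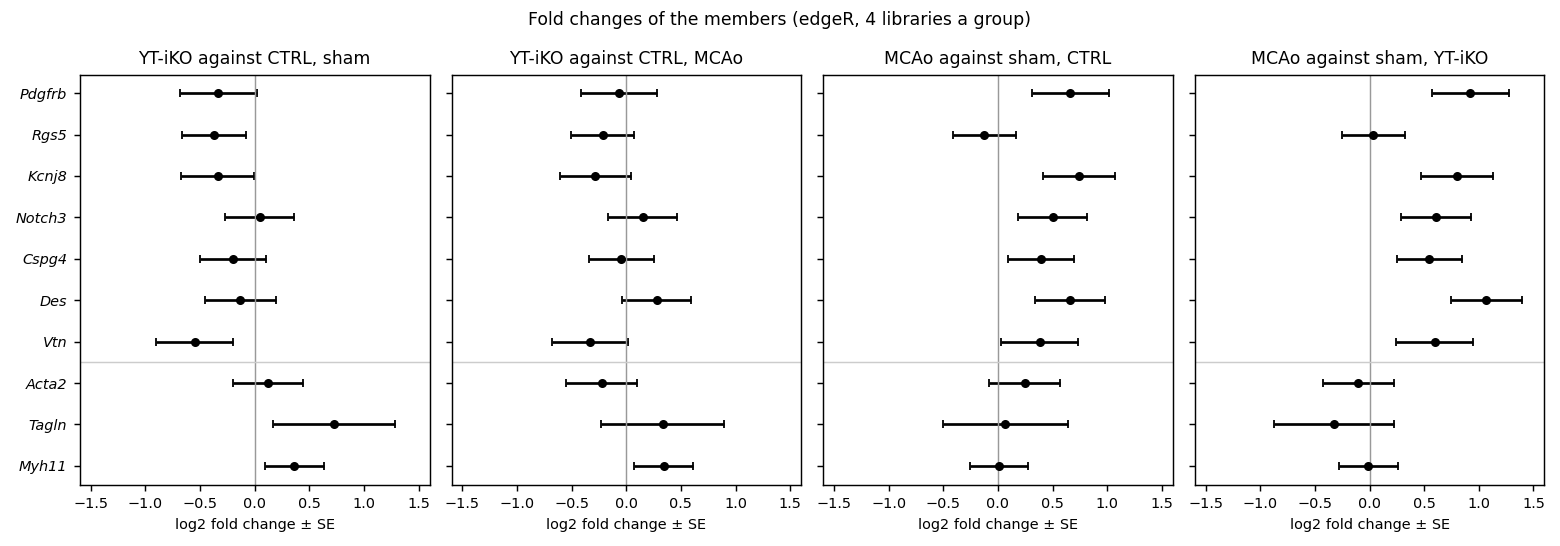
Log2 fold change ± SE of the 10 genes from edgeR in the 4 pairwise comparisons (n = 4 libraries a group), with the smooth muscle genes below the grey line. After MCAo 6 of the 7 pericyte genes lie above 0 in CTRL and 7 of 7 in YT-iKO, where Rgs5 is at 0.04, and none passed an adjusted p under 0.1.

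The contrast of MCAo with sham averaged over both genotypes was added after seeing the data. In it 1 of 10 genes passed, Des, which was higher by a log2 fold change of 0.87 (SE 0.23, edgeR adjusted p = 0.0864), beside 1.23% of all genes. Kcnj8 (0.77, adjusted p = 0.189), Pdgfrb (0.79, adjusted p = 0.221), Notch3 (0.56, adjusted p = 0.586) and Cspg4 (0.47, adjusted p = 0.754) did not pass, though 5 of 10 genes with Des had an unadjusted p under 0.05, beside 5.82% of all genes. DESeq2 called 3 of 9 in this contrast, Pdgfrb, Kcnj8 and Des, beside 4.73%. The call of Des was lost on leaving out any 1 of 11 of the 16 libraries (YT-iKO MCAo replicate 1, YT-iKO sham replicates 1, 2 and 4, CTRL MCAo replicates 1, 2 and 4, and CTRL sham replicates 1 to 4), with an adjusted p of 0.114 to 0.216. A replicate block in the fit also ended this call (0.79, edgeR adjusted p = 0.105). Averaged over both operations, genotype gave 0 of 10 calls by edgeR, beside 0.280%, 0 at an unadjusted p under 0.05, beside 3.24%, and 0 of 9 by DESeq2, beside 1.33%.

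The levels of the pericyte genes were correlated from library to library, as were those of many other genes. Among 45 pairs of the 10 genes, compared as log2(CPM + 1) over 16 libraries, the 21 pairs of pericyte genes had a Pearson r of 0.42 to 0.97 with a median of 0.85, and 20 of them had a permutation p under 0.05 after adjustment over the 45 (17 of 21 by Spearman's rho). Over all pairs of the 11512 genes whose mean reached 5 CPM the median r was 0.55, 55.3% of pairs had an r at least as far from 0 as the smallest that passed (0.556), and 9.30% reached the pericyte median of 0.85. The 120 pairs of 16 endothelial markers had a median r of 0.82, and 36.7% of them reached 0.85. The closest pair was Pdgfrb and Kcnj8, with r = 0.97 and rho = 0.92, an adjusted permutation p of 5.0e-05 for r and 1.1e-04 for rho, and r = 0.96 without the 2 libraries farthest from the median of Pdgfrb. Without Rgs5, the 15 pairs had r of 0.68 to 0.97 with a median of 0.93. All libraries share the scaling by TMM factors, and Pecam1 moved with the pericyte genes in part: it was at 1932 and 1649 CPM in CTRL MCAo replicates 1 and 4 and at 1497 and 1894 CPM in YT-iKO MCAo replicates 1 and 4, its 4 highest libraries. Of these, 3 were also among the 4 highest for Pdgfrb. In the 4 libraries highest for Pdgfrb, the 16 endothelial markers did not move as 1. Their sum was 32199 and 20064 CPM in CTRL MCAo replicates 1 and 2 and 25089 and 29459 CPM in YT-iKO MCAo replicates 1 and 4. In CTRL sham it was 24911 to 27108 CPM. The part of the endothelial RNA in this movement was not tested.

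**Figure D3:**
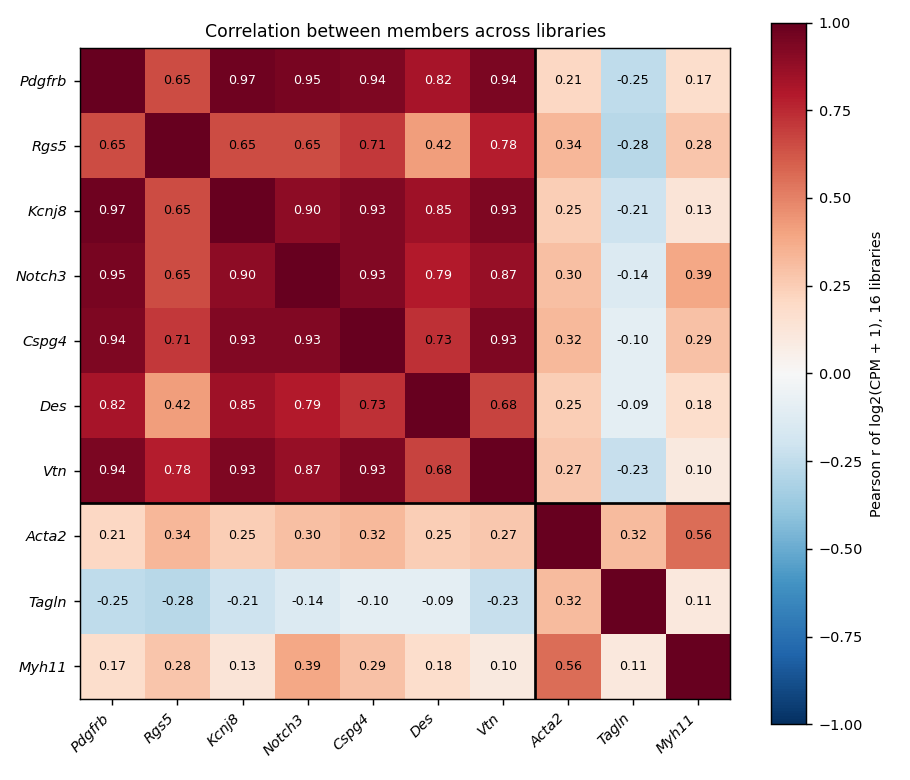
Pearson r between each pair of the 10 genes over 16 libraries, from log2(CPM + 1), with lines that part the 7 pericyte genes from the 3 smooth muscle genes. Pairs of pericyte genes reach 0.97, and pairs of a pericyte with a smooth muscle gene lie between −0.28 and 0.39.

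No relation of the smooth muscle genes with the pericyte genes passed the test. In the 21 pairs of 1 pericyte and 1 smooth muscle gene, r was −0.28 to 0.39 with a median of 0.18, and 0 pairs passed an adjusted permutation p under 0.05 by either coefficient. As deviations from the group means, their r was −0.16 to 0.51 with a median of 0.34, beside a median of 0.91 for the pericyte pairs. Within the smooth muscle genes only Acta2 with Myh11 passed, with r = 0.56 (adjusted permutation p = 0.0484) and rho = 0.58 (adjusted permutation p = 0.0517). Among all pairs of genes whose mean reached 5 CPM, 55.3% had an r at least as far from 0. Without the 2 libraries farthest from the median of Acta2, the r of Acta2 with Myh11 was 0.30, so the relation rests on those libraries. As deviations from the group means the pair had r = 0.65, and with the even background taken off r = 0.57.

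**Figure D4:**
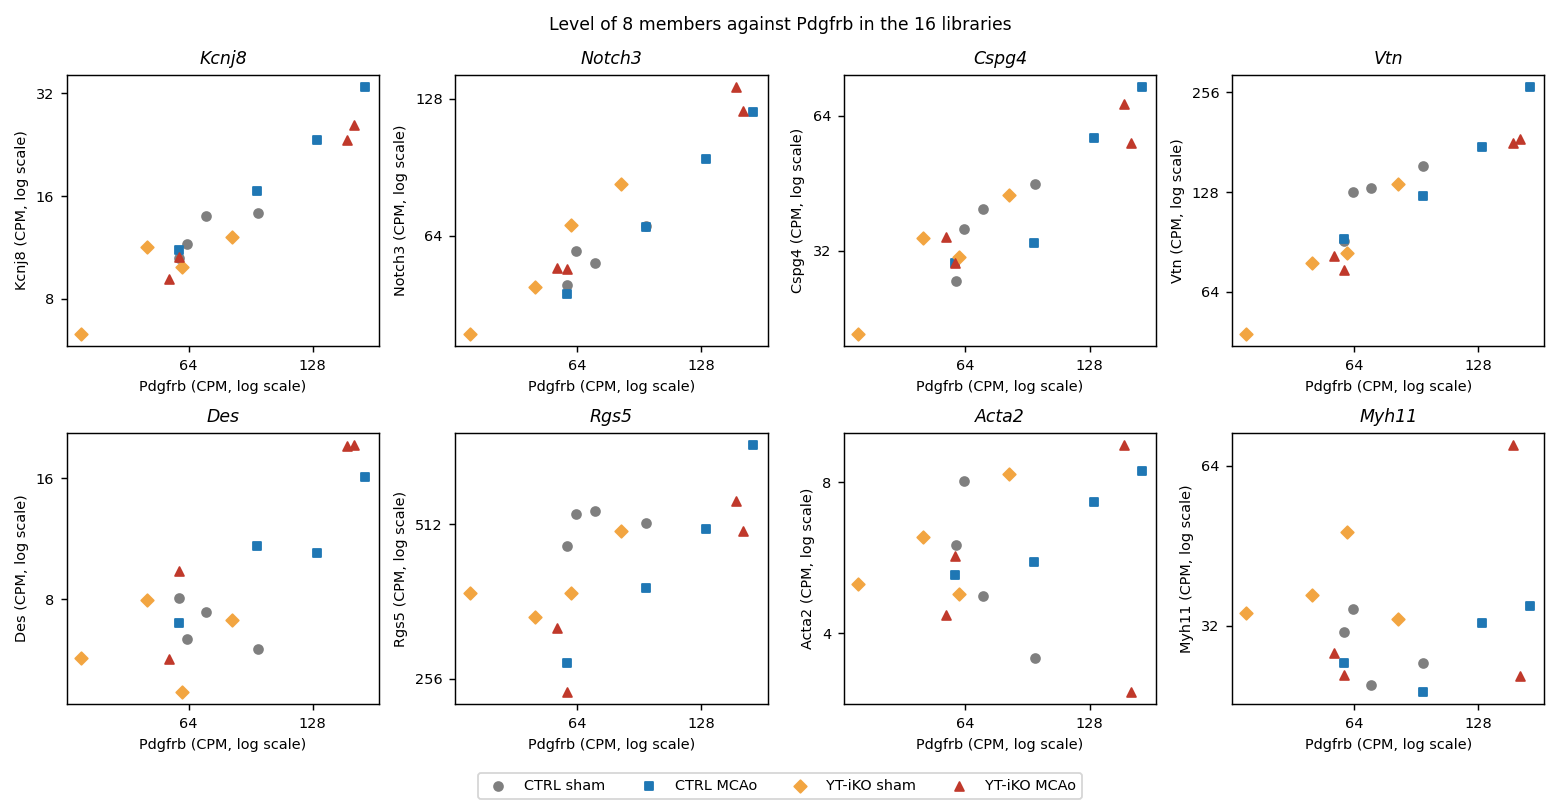
Level of 8 of the genes against Pdgfrb in the same library, both in CPM on log2-spaced axes, with 1 point a library and colours for the 4 groups. Kcnj8, Notch3, Cspg4 and Vtn climb with Pdgfrb from 35.1 to 171 CPM, most MCAo libraries have less Rgs5 than sham libraries at a like level of Pdgfrb, and Acta2 and Myh11 show no trend (r = 0.21 for Acta2).

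Rgs5 stood between these patterns. Its 6 pairs with other pericyte genes had a median r of 0.65, but when each library was expressed as a deviation from its group mean the median was 0.88 (0.73 to 0.91), so within a group it tracked the others. The groups themselves differed in its ratio to Pdgfrb, a comparison chosen after the values were seen and therefore given without a test. That ratio was 8.46, 7.67, 7.69 and 5.47 in CTRL sham and 4.27, 3.81, 4.54 and 4.10 in CTRL MCAo. In YT-iKO it was 6.08, 6.10, 6.69 and 10.7 after sham and 3.66, 3.99, 5.60 and 3.07 after MCAo. Every MCAo library lay below every sham library of its genotype.

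Group means of this ratio were 7.32 ± 1.29 and 4.18 ± 0.302 for CTRL sham and MCAo and 7.39 ± 2.22 and 4.08 ± 1.08 for YT-iKO sham and MCAo (SD, n = 4 each). Among 11511 genes whose mean reached 5 CPM, 8.15% had such a lower ratio to Pdgfrb without overlap in CTRL, 19.8% in YT-iKO and 3.42% in both. Of the 8 other genes of the set above that level, Rgs5 alone did so in both genotypes, and Notch3 did so in YT-iKO. The even background could supply at most 0.740% of the Rgs5 counts and 4.36% of the Pdgfrb counts. Within YT-iKO, the libraries outside the 3 with the highest receptor density had ratios of 6.08, 6.10 and 10.7 after sham and 3.66 and 3.07 after MCAo, with 2 MCAo libraries left.

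**Figure D5:**
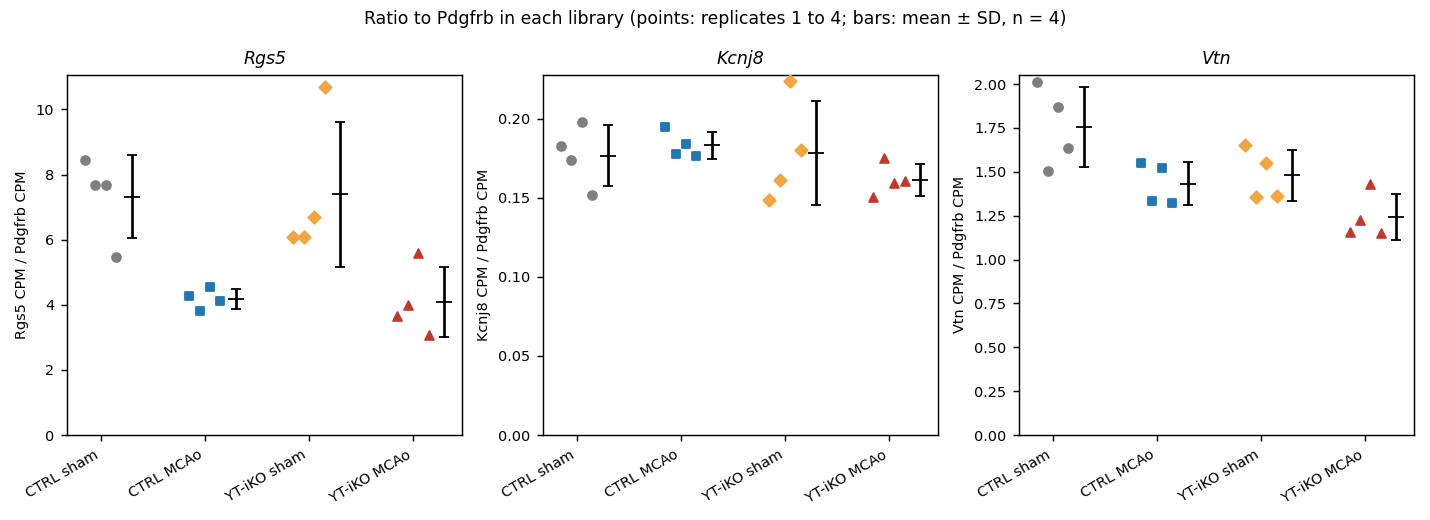
CPM of Rgs5, Kcnj8 and Vtn divided by the CPM of Pdgfrb in each library, on axes that start at 0, with points for replicates 1 to 4 and bars for the mean ± SD (n = 4). The Rgs5 ratio is 5.47 to 10.7 after sham and 3.07 to 5.60 after MCAo, without overlap within a genotype, whereas the Kcnj8 ratio stays at 0.149 to 0.224. Of 11511 genes, 8.15% in CTRL, 19.8% in YT-iKO and 3.42% in both had a lower ratio to Pdgfrb after MCAo without overlap.

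The ratios of the other pericyte genes to Pdgfrb were steadier, with coefficients of variation of 15.9% for Notch3, 16.1% for Vtn, 17.9% for Cspg4 and 26.5% for Des, beside 36.3% for Rgs5. For the smooth muscle genes they were 42.3% (Acta2), 48.4% (Myh11) and 69.6% (Tagln). The Notch3 ratio was 0.934, 0.824, 0.790 and 0.713 in CTRL sham and 1.02, 1.09, 0.974 and 1.11 in YT-iKO sham. The sham groups did not overlap in this ratio, which 1.14% of the 11511 genes shared in the same direction, and it too was picked out after the values were seen. After MCAo the Notch3 ratio was 0.698 to 0.786 in CTRL and 0.745 to 0.946 in YT-iKO, and the groups overlapped.

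Other genes were ranked by how closely they varied with the set from library to library. The 5 genes most like the mean of the 7 pericyte genes, by Pearson r of log2(CPM + 1) over 16 libraries among 11512 genes whose mean reached 5 CPM, were Arhgef17 (r = 0.97), Abcc9 (0.97), Zic1 (0.96), Tbx2 (0.95) and Ehd3 (0.95). Abcc9 encodes the sulfonylurea receptor that pairs with the channel subunit of Kcnj8, and Abcc9, Zic1 and Tbx2 are themselves on a list of 24 further pericyte markers. Abcc9 was at 39.2 CPM in YT-iKO sham replicate 4, its lowest library and that of Pdgfrb, and at 175 CPM in CTRL MCAo replicate 1, the highest of both. The 5 genes most like the mean of the 3 smooth muscle genes were Tbx3os1 (0.76), Gdf11 (0.72), Carmil1 (0.71), Ptrhd1 (0.70) and Camk2b (0.66), and none of them is on a marker list used here.

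The 24 further pericyte markers stood on the same side as the set after MCAo. In CTRL 21 of 24 had a positive log2 fold change, with a median of 0.33, beside 57.1% and 0.07 over all genes tested, and the 7 pericyte genes of the set had a median of 0.50. In YT-iKO 22 of 24 were positive with a median of 0.29, beside 47.6% and −0.02 over all genes, and the set had a median of 0.61. Of the 24, edgeR called 0 in CTRL, beside 0.216% of all genes, and 1 in YT-iKO, Cd248, beside 0.318%. DESeq2 called 1 of 24 in CTRL, Cd248, beside 1.11% of all genes, and 2 in YT-iKO, Cd248 and Ednra, beside 1.25%.

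Cd248 encodes the mural and fibroblast surface protein endosialin. It was at 9.58, 11.1, 10.3 and 10.9 CPM in CTRL sham and 48.9, 31.8, 11.3 and 25.2 CPM in CTRL MCAo, without overlap, and its log2 fold change of 1.49 (SE 0.37) did not pass by edgeR (adjusted p = 0.162) and passed by DESeq2 (1.49, adjusted p = 0.0091). In YT-iKO it was at 10.03, 6.07, 6.03 and 5.34 CPM after sham and rose to 35.9, 18.6, 11.5 and 40.9 CPM after MCAo, also without overlap, with a log2 fold change of 1.96 (SE 0.38, edgeR adjusted p = 0.0232). The interaction for Cd248 was 0.47 (SE 0.51), with an adjusted p of 1.00.

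In the contrast averaged over genotypes, in which 1.23% of all genes were called, 4 of the 24 were called, all higher after MCAo: Cd248 (1.72), Ednra (0.92), the endothelin A receptor, Steap4 (1.07), a metalloreductase, and Pla1a (0.89), a phospholipase, with edgeR adjusted p of 9.0e-04, 0.0157, 0.081 and 0.0984. DESeq2 called 6 of the 24 there, those 4 with Tbx2 (0.73, adjusted p = 0.0932) and Abcc9 (0.70, adjusted p = 0.0446), beside 4.73% of all genes. Fibroblast markers were on this side too. Of 12 of them, 10 had a positive log2 fold change in that contrast with a median of 0.47, and 2 were called, beside the same 1.23%: Dcn (2.13, edgeR adjusted p = 0.00453) and Col1a2 (0.77, edgeR adjusted p = 0.0252). DESeq2 called these and Col3a1 (0.71, adjusted p = 0.0294), 3 of 11 tested beside 4.73%. Within each genotype DESeq2 called Dcn alone, higher after MCAo, 1 of 11 tested beside 1.11% in CTRL and 1.25% in YT-iKO. In both genotypes edgeR called 0 of the 12, beside 0.216% and 0.318%. The summed CPM of the 12 in CTRL was 43.1 to 53.5 after sham and 58.8 to 78.9 after MCAo, and in YT-iKO 41.2 to 95.7 and 44.9 to 94.8. The even background could supply 6.15% to 44.7% of these counts, and with it taken off the CTRL sums were 24 to 37.8 CPM after sham and 41.9 to 53.2 CPM after MCAo. Their part in the pericyte values was not tested.

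Of 20 further smooth muscle markers, 12 had a positive log2 fold change after MCAo in CTRL (median 0.15) and 8 in YT-iKO (median −0.06), and edgeR called 0 in both, beside 0.216% and 0.318% of all genes. DESeq2 called 1 of 17 tested in CTRL and 1 of 19 in YT-iKO, Mustn1 in both, higher by 1.77 (adjusted p = 0.0128) and 1.66 (adjusted p = 0.0241), beside 1.11% and 1.25%. The averaged contrast called 2 of 20 (beside 1.23% of all genes), Mustn1 (1.71, edgeR adjusted p = 0.00663), a small protein of the musculoskeletal system, and Aoc3 (0.87, edgeR adjusted p = 0.0548), the vascular amine oxidase. The summed CPM of this list, uncorrected for length, was led by Pcp4l1 (mean 344.6 CPM), Smtn (235 CPM) and Synpo2 (229 CPM). Each of these means stood above those of Acta2 (5.98 CPM) and Myh11 (33.6 CPM). Whether reads of Pcp4l1, Smtn and Synpo2 came from smooth muscle cells was not tested. Synpo2, an actin-binding protein, was the only 1 of the 20 called for genotype averaged over operations, lower in YT-iKO by a log2 fold change of −0.85 (edgeR adjusted p = 0.0556), beside 0.280% of all genes. Its values were −0.81 after sham and −0.89 after MCAo, which did not pass by edgeR (adjusted p = 0.990 and 0.889), while DESeq2 called it lower after MCAo (−0.92, adjusted p = 0.0356, beside 0.461% of all genes) and not after sham (−0.81, adjusted p = 0.138). Its contractile markers Cnn1, Actg2 and Lmod1 had means of 1.85, 1.29 and 3.32 CPM, and Myocd, the cofactor that switches on contractile genes, one of 3.38 CPM. No library had 0 counts of these 4 genes, but the lowest were 3 counts for Actg2 and 2 for Myocd. How much of their counts the even background could supply was not computed gene by gene.

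The endothelial side of the exchange with mural cells was covered by 25 signalling genes. Pdgfb, the ligand of the Pdgfrb receptor and the gene whose promoter drives the Cre, was at 406, 396, 435 and 418 CPM in CTRL sham and at 521, 413, 291 and 428 CPM in YT-iKO sham, with a log2 fold change near 0 (SE 0.26, edgeR adjusted p = 0.999). After MCAo its groups were at 435 ± 123 CPM in CTRL and 467 ± 143 CPM in YT-iKO (SD, n = 4). Of the 25, edgeR called 2 lower in YT-iKO after sham, beside 0.0965% of all genes, and 0 after MCAo, beside 0.0708%. Angpt2, an angiopoietin that loosens the contact of pericytes and endothelium, was lower by a log2 fold change of −1.38 (SE 0.23, edgeR adjusted p = 0.015), and Edn1, the vasoconstrictor endothelin that acts on mural cells, by −1.72 (SE 0.33, edgeR adjusted p = 0.0391). After MCAo the log2 fold changes were −0.69 for Angpt2 (edgeR adjusted p = 1.00) and −1.09 for Edn1 (edgeR adjusted p = 0.931). DESeq2 called both after sham and Edn1 alone after MCAo (−1.11, adjusted p = 0.0951, beside 0.461%). Averaged over operations, edgeR called the same pair lower in YT-iKO, Angpt2 by −1.03 (adjusted p = 0.00266) and Edn1 by −1.40 (adjusted p = 0.00344), 2 of 25 beside 0.280%, and neither interaction passed (edgeR adjusted p = 1.00 for both). In that averaged genotype contrast DESeq2 called the pair and Eng lower, 3 of 25 beside 1.33%. In the averaged MCAo contrast Edn1 was the 1 gene of the 25 called, higher by 0.84 (edgeR adjusted p = 0.0976), beside 1.23% of all genes, and DESeq2 called 2, Edn1 (0.83, adjusted p = 0.00877) and Mrtfb (0.72, adjusted p = 0.0184), beside 4.73%. After sham Angpt2 was at 28.0 to 43.9 CPM in CTRL and 11.3 to 15.1 CPM in YT-iKO, while Pdgfrb, Rgs5, Kcnj8 and Vtn overlapped between the same groups.

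Other brain cells were read from their marker lists, of which microglia and macrophages carry CD45 and are removed by the sort. Summed over 9 microglia and macrophage genes, CTRL spanned 25.0 to 37.9 CPM after sham and 25.6 to 38.0 after MCAo and YT-iKO 22.1 to 45.6 and 21.6 to 42.5, so they overlapped throughout. The even background could supply 6.03% to 44.9% of these counts, and the highest sums of both YT-iKO groups came from sham replicate 3 and MCAo replicate 2, both among the 3 libraries of the highest receptor density. The sums of 3 other lists separated some groups, at levels below the 480.2 to 1411 CPM of the 7 pericyte genes. Summed over 8 oligodendrocyte genes, CTRL was at 21.6 to 29.0 CPM after sham and 29.3 to 36.5 CPM after MCAo, without overlap, with 7 of 8 log2 fold changes above 0 and a median of 0.32, beside 0.33 for the 24 further pericyte markers. In YT-iKO these sums were 24.2 to 39.3 and 28.4 to 43.8 CPM. Summed over 8 neuronal genes, CTRL was at 38.8 to 46.1 CPM after sham and at 29.1 to 38.5 CPM after MCAo, again without overlap, and YT-iKO at 44.9 to 69.5 and 27.9 to 57.3 CPM. Although this sum was lower, 6 of the 8 neuronal genes had a log2 fold change above 0 after MCAo in CTRL. Summed over 10 astrocyte genes, the sham groups did not overlap between genotypes, at 132 to 159 CPM in CTRL and 117 to 123 CPM in YT-iKO, and after MCAo they were at 115 to 138 and 105 to 149 CPM. Background could supply 2.30% to 39.8% of the oligodendrocyte counts, 4.71% to 40.4% of the neuronal and 1.33% to 23% of the astrocyte counts, and the highest neuronal sums of YT-iKO came from the same libraries as those of microglia. With it taken off, an alternative added after seeing the data, the oligodendrocyte sums in CTRL met (14.6 to 23.2 CPM after sham, 23.2 to 26.4 after MCAo), whereas the neuronal sums in CTRL (29.9 to 38.6 and 18.1 to 28.6) and the astrocyte sums after sham (120 to 149 in CTRL, 94.2 to 113 in YT-iKO) still did not overlap. The 4 haemoglobin and red cell genes overlapped throughout, at 4.90 to 36.0 CPM. In the averaged MCAo contrast edgeR called 2 of the 10 astrocyte genes, Gfap higher (0.80, adjusted p = 0.0368) and Fgfr3 lower (−0.59, adjusted p = 0.0921), and 1 of the 8 neuronal genes, Stmn2, lower (−0.65, adjusted p = 0.0651), and none of the oligodendrocyte, microglia and macrophage or red cell genes, beside 1.23% of all genes. Within CTRL, DESeq2 called Gfap higher after MCAo (1 of 9 astrocyte genes tested) and Stmn2 lower (1 of 6 neuronal genes tested), beside 1.11% of all genes. Within YT-iKO it called none of the genes of these lists, beside 1.25%. The part of these cells in the pericyte values was not tested.

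Summed over the 7 pericyte genes, CPM in CTRL was 828 ± 80.4 after sham and 914 ± 383 after MCAo, and in YT-iKO 648 ± 147 and 815 ± 341 (SD, n = 4 each), a sum to which Rgs5 gave the most. As a percentage of the 16 endothelial markers it was 3.15 ± 0.398, 3.66 ± 1.18, 3.17 ± 0.518 and 3.65 ± 0.665 in the same order. The SDs of the MCAo groups were larger than the differences between the group means. The 3 smooth muscle genes summed to 35.7 ± 6.26, 37.0 ± 6.66, 45.1 ± 6.07 and 44.1 ± 24.1 CPM, of which Myh11 was the largest part. As a percentage of the endothelial markers they came to 0.135 ± 0.0222, 0.155 ± 0.0437, 0.226 ± 0.0591 and 0.208 ± 0.0922. On this scale CTRL sham (0.111 to 0.163) and YT-iKO sham (0.166 to 0.295) did not overlap, whereas their CPM sums did (29.8 to 43.3 and 39.5 to 53.7), and the endothelial markers themselves had a median log2 fold change of −0.29 in YT-iKO after sham. Scaling to those markers moved the median of all genes by 0.42 in that comparison. The share of all genes without overlap on this scale was not computed. The 20 further smooth muscle markers overlapped on it (4.38 to 5.04 in CTRL sham, 4.23 to 5.30 in YT-iKO sham). Their CPM sums were lower in YT-iKO sham, at 798 to 1091 against 1175 to 1270. For the 3 smooth muscle genes the percentages of the MCAo groups overlapped, at 0.102 to 0.201 in CTRL and 0.0998 to 0.319 in YT-iKO.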

How the data were processed

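RNA of sorted bECs was sequenced in 16 libraries after SMART-Seq amplification. The authors deposited raw counts per gene, from paired-end reads mapped with STAR 2.7.8a to GRCm38 with the GENCODE M12 annotation. The counting program and its use of strand are not given in the sources used here. Of 37003 genes, 36861 were matched to GENCODE M21 on GRCm38 for positions and exon lengths (the union of exons).

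The main test was edgeR 4.0.16's quasi-likelihood test (R 4.3.3) with TMM factors and 4 groups in 1 model. filterByExpr (minimum count 10, minimum total 15) left 31085 genes, over which Benjamini-Hochberg adjustment was made, with calls at an adjusted p under 0.1. All 10 genes passed this filter. DESeq2 1.42.0 was an alternative. Permutation tests of correlations were two-sided with 100000 resamples, whose smallest p is 1.0e-05. Total counts were 11418262 to 23074547, and counting error is larger for Tagln than for the other genes. Other alternatives were the scaling, the filter, the threshold, only the groups compared, a replicate block, receptor density as a covariate and leaving out each library.

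The members and lists were chosen with earlier results of these data known. Named genes were the 10 members, Yap1, Wwtr1, Pecam1, Ptprc, the 5 closest to each mean, and from each other list up to 3 called in a direction or otherwise the most abundant. Other genes of the lists (Ednra, Pdgfb and the contractile markers among them) were named after their values were seen.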

Additional observations from a re-analysis of the deposited data

Results flagged for a closer look

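Myh11 in YT-iKO MCAo replicate 1 stood far from the rest of its group, at 70.1 CPM where the other 3 libraries were at 25.7 to 28.4 CPM. The gap to the nearest library was 0.939 of the range of the group, above Dixon's 95% critical value for 4 samples. It was the only such value in 40 checks of 10 genes in 4 groups, and chance alone marks about 1 group in 20.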

How the results depend on the processing

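Each of 70 log2 fold changes of the 10 genes (10 in each of 7 contrasts) was recomputed, 1860 values in all. In 1813 the direction of any call and the side of the threshold stayed as reported, in 34 a gene newly passed, in 13 a call was lost (all of Des in the averaged MCAo contrast), and in 0 a call turned; 32 of the 70 kept 1 sign throughout. For MCAo in CTRL, with 0 genes called, 2 were called with only the groups compared (Kcnj8 and Des, beside 2.52% of all genes), 2 with receptor density as a covariate (Pdgfrb and Kcnj8, 2.47%) and 1 without the 3 libraries of the highest density (1.86%). For MCAo in YT-iKO, with 0 called, 1 was called with the density covariate (Des, 1.75%), 4 without those 3 libraries (4.34%), and 0 to 1 on leaving out single libraries, where YT-iKO MCAo replicate 3 gave Des (1.32, edgeR adjusted p = 0.0454). In the averaged MCAo contrast, with 1 called, beside 1.23% of all genes, 3 were called by DESeq2 (4.73% of all genes), 4 with TMM factors from genes of at least 10 CPM (5.14%), 0 at an adjusted p under 0.05 (0.885%), 4 with the density covariate (6.82%), 4 scaled to endothelial markers (3.88%), 6 without the 3 libraries (6.24%), and 0 to 3 on leaving out single libraries. YT-iKO MCAo replicates 2 and 3 and CTRL MCAo replicate 3 gave the 3 (1.83%, 1.39% and 1.31% of all genes). For genotype averaged over operations, with 0 called, 1 was called when scaled to the endothelial markers (Myh11, 0.63, edgeR adjusted p = 0.0603), a setting that moved the median of all genes by 0.34 and called 14% of them. The causes of these differences were not tested.

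The labels do not say that same-numbered libraries are pairs, and the main fit did not pair them. Their deviations were more alike than those of other libraries. The median r was 0.26 over 24 same-numbered pairs, of which 17 were above 0.1, against −0.13 over 72 other pairs, of which 27 were above 0.1. With a replicate block, 0 genes were called in the averaged MCAo contrast (Des 0.79, adjusted p = 0.105) and 0 in the other comparisons, and Des after MCAo in YT-iKO was 0.98 (adjusted p = 0.420). Depth limits Tagln most, at 4 to 29 counts a library.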
